A study of Mus musculus with 10 samples.

Results

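Scn7a, Mbp, Pmp22, Cdh19, Sox10, Ngfr, L1cam and S100b are genes of Schwann cells and of the nerve supply, and their RNA was measured in whole interscapular brown adipose tissue (iBAT) of Axl knockout (KO) and wild-type (WT) mice fed a high-fat diet (HFD). They are 8 of the 41249 gene identifiers with counts. Scn7a was selected on its lower level in Axl KO than in WT mice, so its values and those of the list that holds it are given here as a description. The other 7 genes were chosen by their known roles, at a time when earlier results of these data were known. Every mouse was male and received HFD ad libitum at room temperature for 24 weeks from an age of 6 to 8 weeks by the sample records, whereas the study's text gives a slightly longer diet and a later start, and RNA came from 1 depot per mouse with 1 library each. The 5 Axl KO mice were homozygous for the tm1a(EUCOMM)HMGU allele, a cassette with a splice acceptor, LacZ and a neomycin selection marker between exons 4 and 5 of Axl, made in embryonic stem cells and bred with C57Bl6 mice. The 5 WT mice were littermates. The allele acts in the whole body from the embryo on, so neurons and Schwann cells carried it as well as fat cells. All 10 mice had HFD, and no chow-fed mouse is part of the comparison.

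Schwann cells are the glia of peripheral nerves. Those that wrap a single axon form myelin, whereas non-myelinating (Remak) Schwann cells hold several thin axons each, as in the sympathetic fibres that supply brown fat. The transcription factor Sox10 sets and keeps Schwann cell identity, neuregulin receptors carry the signal from the axon, and adhesion molecules such as L1cam join axon and glia. RNA of neurons lies mostly in cell bodies, which for sympathetic fibres are in ganglia outside the depot, whereas Schwann cells have their nuclei along the fibres. In a bulk sample, fewer cells of a type and less RNA per cell cannot be told apart.

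The stretches just before the transcription start of 2 members are shown because these genes differ most in the results: Scn7a had the largest difference between genotypes among the members tested, and S100b had by far the highest level. Both are from RefSeq on GRCm38.p6, with 250 bases each, written on the strand of the gene, at chr2:66784911-66785160 on the reverse strand for Scn7a and chr10:76253586-76253835 on the forward strand for S100b. All letters are in lower case because no searched motif was found.
Scn7a: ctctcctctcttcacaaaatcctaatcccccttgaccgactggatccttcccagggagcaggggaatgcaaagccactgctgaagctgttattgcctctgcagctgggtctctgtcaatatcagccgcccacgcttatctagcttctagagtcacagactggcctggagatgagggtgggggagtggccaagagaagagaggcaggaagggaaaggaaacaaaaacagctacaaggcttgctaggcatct
S100b: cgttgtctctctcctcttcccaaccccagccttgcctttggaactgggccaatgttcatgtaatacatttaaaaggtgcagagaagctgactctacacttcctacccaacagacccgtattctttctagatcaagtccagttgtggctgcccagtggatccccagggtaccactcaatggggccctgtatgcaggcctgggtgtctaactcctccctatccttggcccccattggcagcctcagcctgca
The motifs searched were ACAAAG and ACAATG, letters that SOX factors are known to bind, on both strands. Either motif stood in 25.2% of the 32851 RefSeq promoter windows of this length. None of the windows read for Scn7a, S100b, Pmp22, Ngfr and L1cam held one, which says only that these letters are not in these windows.

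The total count per mouse was between 5431014 and 9580215. Levels are given in CPM, counts scaled to a fixed library total after TMM normalization, which brings libraries to a common middle of the genes. Axl, the targeted gene, had 3 to 15 counts in Axl KO mice and 224 to 383 in WT mice. Its level was 1.57 ± 0.646 CPM (SD, n = 5) against 43.1 ± 5.86 CPM (SD, n = 5), a log2 fold change of -4.77 (SE 0.20, adjusted p = 1.10e-07, from the quasi-likelihood test of edgeR adjusted by Benjamini-Hochberg). Axl was the 1 gene called at an adjusted p under 0.05 among 13739 genes tested, which is 0.00728%. None of the 8 Schwann cell and nerve genes was called by edgeR. Without adjustment, 530 genes (3.86%) were lower in Axl KO mice at p under 0.05 and 624 (4.54%) were higher, and these shares are the background for the counts given further on. The median log2 fold change over all genes tested was -0.00059.

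Scn7a (ENSMUSG00000034810, chr2:66673425-66784914 on the reverse strand of GRCm38) encodes an atypical sodium channel that senses extracellular sodium and is found in non-myelinating Schwann cells among other cells. Its level in Axl KO replicates 1 to 5 was 40.3, 40.9, 43.0, 37.1 and 39.5 CPM, and in WT replicates 1 to 5 it was 62.0, 52.4, 57.6, 53.3 and 47.8 CPM. No Axl KO mouse reached the lowest of the WT mice. The means were 40.2 ± 2.14 CPM (SD, n = 5) and 54.6 ± 5.38 CPM (SD, n = 5), so that the Axl KO level was 73.5% of the WT level, with a log2 fold change of -0.44 (SE 0.074). These values rest on 210 to 369 reads per Axl KO mouse and 310 to 498 per WT mouse. The coefficient of variation was 5.33% between Axl KO mice and 9.86% between WT mice. Counting alone gives 5.34% at the mean count of all 10 mice. Axl KO mice had fewer reads, 1367 against 2137 in WT mice, so their own counting error is larger than that. In TPM, a transcript level that divides by gene length and omits TMM, the Axl KO level was 76.3% of the WT level. On the TPM scale 4 of 5 Axl KO mice were under the lowest WT mouse and the groups overlapped, with 11.8 to 14.5 TPM in Axl KO mice and 12.8 to 20.5 TPM in WT mice. In CPM of total counts, which also omits TMM, they did not overlap, with 36.5 to 44.9 against 49.0 to 61.0 CPM.

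L1cam (ENSMUSG00000031391, chrX:73853778-73896105 on the reverse strand) is an adhesion molecule that joins axons to each other and to Remak Schwann cells. It had 2.47, 2.40, 3.15, 2.91 and 2.63 CPM in Axl KO replicates 1 to 5 and 4.37, 3.39, 2.43, 4.47 and 3.02 CPM in WT replicates 1 to 5. WT replicates 1 and 4 stood above all other mice, and the groups overlapped through WT replicates 3 and 5. The log2 fold change was -0.36 (SE 0.20, 95% interval -0.79 to 0.084), with an adjusted p of 0.644. L1cam shares 100 exonic bases with Arhgap4 on the same strand, so some of its 14 to 32 reads per mouse may have been assigned to either gene.

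Ngfr (ENSMUSG00000000120, chr11:95568818-95587735 on the reverse strand) encodes the p75 neurotrophin receptor, which Schwann cells of immature, injured and non-myelinating type carry. Its 91 reads over all mice were spread as 6, 6, 17, 12 and 0 in Axl KO replicates 1 to 5 and 14, 11, 8, 8 and 9 in WT replicates 1 to 5. Axl KO mice included both the highest level, 1.98 CPM in replicate 3, and the lowest, 0 in replicate 5. A count of 0 among 5431014 reads allows a level of up to 0.565 CPM, from 3 counts, for counting error only. The log2 fold change of -0.12 had an SE of 0.47 and a 95% interval from -1.13 to 0.89, which includes both a 2-fold lower level and no difference. Without Axl KO replicate 5 it was 0.14, and without Axl KO replicate 3 it was -0.45.

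**Figure D1:**
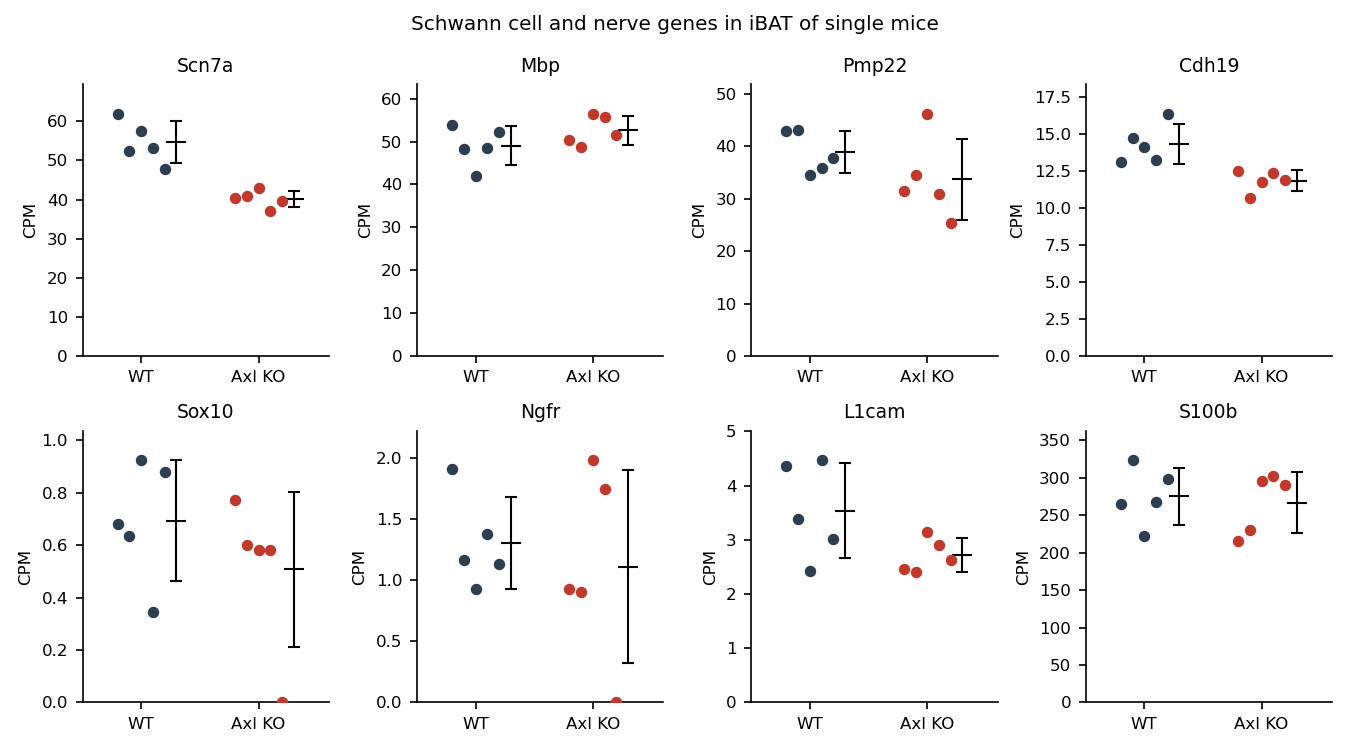
CPM of the 8 Schwann cell and nerve genes in each mouse, with 1 panel per gene, 5 points for Axl KO and 5 for WT, and the mean and SD of each group. Scn7a and Cdh19 have every Axl KO mouse below every WT mouse, and the other 6 genes overlap.

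Cdh19 (ENSMUSG00000047216, chr1:110888326-110977584 on the reverse strand) is a cadherin known from Schwann cells and their precursors. It had 12.5, 10.7, 11.8, 12.4 and 11.9 CPM in Axl KO replicates 1 to 5 and 13.1, 14.7, 14.1, 13.2 and 16.4 CPM in WT replicates 1 to 5. All Axl KO mice lay below all WT mice, though the highest Axl KO mouse and the lowest WT mouse were close. The means were 11.8 ± 0.722 CPM (SD, n = 5) and 14.3 ± 1.32 CPM (SD, n = 5), or 82.7% of the WT level, with a log2 fold change of -0.28 (SE 0.091, 95% interval -0.47 to -0.080). The adjusted p was 0.571 in edgeR's quasi-likelihood test, so Cdh19 did not pass. In TPM the groups overlapped, with 5.52 to 6.82 in Axl KO mice and 5.44 to 9.57 in WT mice. In CPM of total counts without TMM they did not, with 10.7 to 12.4 against 12.9 to 16.8 CPM.

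Over all genes tested, 85 (0.619%) had every Axl KO mouse below every WT mouse in CPM and 101 (0.735%) had every Axl KO mouse above. Among the members tested, 2 of 7 did, Scn7a and Cdh19, both lower. Scn7a was picked for this difference, and nothing is read from that count.

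Sox10 (ENSMUSG00000033006, chr15:79154908-79165240 on the reverse strand), the transcription factor that defines Schwann cells, had 46 reads in all and lay under the minimum mean of 1 CPM, so it was not tested with the other genes. Its reads were 5, 4, 5, 4 and 0 in Axl KO replicates 1 to 5 and 5, 6, 8, 2 and 7 in WT replicates 1 to 5. Both groups spread over most of the same range, apart from the 0 in Axl KO replicate 5, which was also the mouse with no Ngfr read and the smallest library. The mean was 0.508 ± 0.295 CPM (SD, n = 5) against 0.693 ± 0.232 CPM (SD, n = 5). Counting alone gives a coefficient of variation of 46.6% at the mean count of all 10 mice. Fitted without the minimum, the log2 fold change was -0.42 with an SE of 0.48.

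S100b (ENSMUSG00000033208, chr10:76253853-76261159 on the forward strand) encodes a calcium-binding protein that Schwann cells and other glia contain in large amounts and that brown adipocytes are also known to make. Its level was 215, 230, 296, 302 and 291 CPM in Axl KO replicates 1 to 5 and 265, 324, 223, 268 and 298 CPM in WT replicates 1 to 5. The groups covered almost the same range, with a log2 fold change of -0.046 (SE 0.12, 95% interval -0.30 to 0.21, adjusted p = 0.933), and in TPM the Axl KO mean was 101% of the WT mean.

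Of the myelin genes, Mbp (ENSMUSG00000041607, chr18:82475146-82585637 on the forward strand) encodes myelin basic protein, which compacts the myelin membrane, and was the 1 member tested whose fitted mean was higher in Axl KO mice. It had 50.3, 48.8, 56.5, 55.7 and 51.6 CPM in Axl KO replicates 1 to 5 and 53.9, 48.2, 42.1, 48.5 and 52.2 CPM in WT replicates 1 to 5. The groups overlapped, with a log2 fold change of 0.10 (SE 0.075, 95% interval -0.058 to 0.27, adjusted p = 0.707). Without WT replicate 3 the log2 fold change was 0.053. Mbp transcripts also come from start sites used outside the myelin lineage, and gene counts do not separate them.

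Pmp22 (ENSMUSG00000018217, chr11:63128982-63159547 on the forward strand) encodes a membrane protein of compact myelin that fibroblasts and other cells also make. In Axl KO replicates 1 to 5 it had 31.5, 34.6, 46.3, 30.9 and 25.4 CPM, and in WT replicates 1 to 5 it had 43.0, 43.2, 34.6, 35.9 and 37.8 CPM. Axl KO replicate 3 was the highest of all 10 mice, while the other 4 Axl KO mice lay at or below the lowest WT mouse. The coefficient of variation was 23.0% in Axl KO and 10.3% in WT mice. Pmp22 had a log2 fold change of -0.20 (SE 0.13, 95% interval -0.49 to 0.092, adjusted p = 0.687). It was -0.345 without Axl KO replicate 3 and -0.116 without Axl KO replicate 5.

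Compared per length, in TPM over the 10 mice, S100b was the highest member with a mean of 418 TPM (317 to 503), followed by Pmp22 with 35.3 TPM (25.3 to 48.8). Scn7a had a mean of 14.7 TPM (11.8 to 20.5), Mbp 13.7 TPM (10.1 to 16.6) and Cdh19 6.98 TPM (5.44 to 9.57). The lowest were L1cam with 0.963 TPM (0.725 to 1.44), Ngfr with 0.803 TPM (0 to 1.43) and Sox10 with 0.455 TPM (0 to 0.723). The neighbours Scn7a and Mbp, L1cam and Ngfr, and Ngfr and Sox10 had overlapping ranges. With the longest transcript as the length, in place of the union of all exons, Mbp rose to 20.5 TPM and stood above Scn7a at 12.5 TPM.

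**Figure D2:**
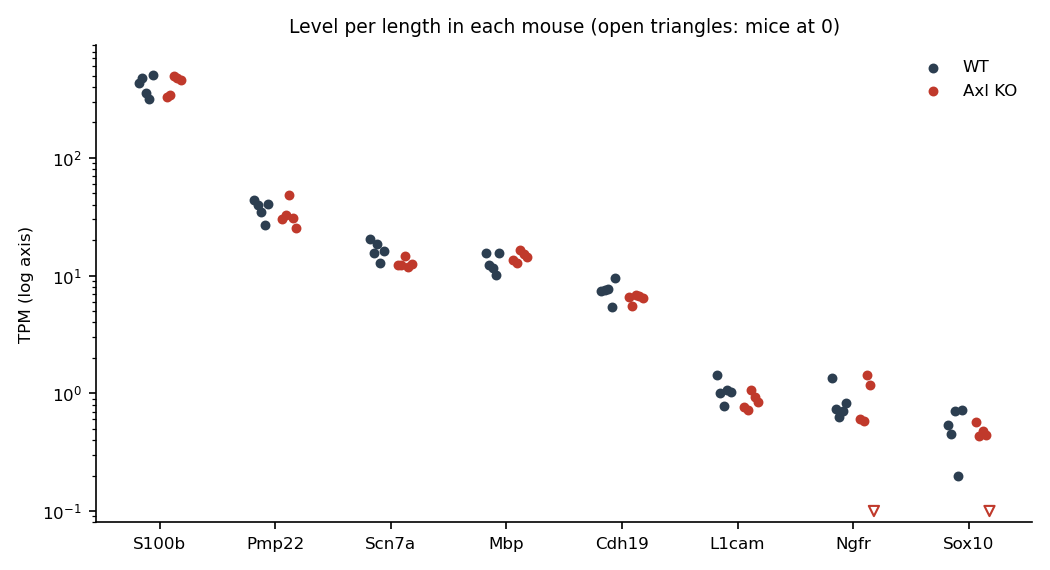
Level per length of the 8 genes in TPM on a log axis, with 1 point per mouse. Open triangles stand for mice without a read of the gene, which have no value on a log axis. S100b stands far above the rest, and Sox10, Ngfr and L1cam lie near or below 1 TPM.

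Of the genes fixed as Schwann cell markers, Sox10, Cdh19, Erbb3, S100b, Ncam1 and Egr2 are reported, and each had reads in at least 9 of 10 mice. Besides Cdh19 and S100b these were scarce. Erbb3, the neuregulin receptor of Schwann cells, had a mean of 2.50 TPM. The adhesion molecule Ncam1 had 0.399 TPM and Egr2, the factor that turns on myelin genes, had 0.331 TPM. Of 10 oligodendrocyte and pigment cell genes, 5 were at 0 in every mouse. These were the oligodendrocyte genes Mog, Mobp and Opalin and the melanocyte genes Tyr and Tyrp1. The rest of that list had reads, and 9 of its 10 genes had a mean under 1 CPM.

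The other genes of the nerve supply were taken from 9 lists with 150 genes in all, of which 75 were tested. With edgeR 0 of them passed an adjusted p of 0.05, and with DESeq2 1 did, Scn7a. In edgeR's fit, at an unadjusted p under 0.05, 7 of the 75 (9.33%) were lower in Axl KO mice and 3 (4.00%) were higher, beside 3.86% and 4.54% of all genes tested. Their median was -0.11 on the log2 scale, and 52 of 75 genes were on the lower side, against 50.2% of all genes tested. In CPM, groups did not overlap for 3 genes (4.00%), Scn7a, Cdh19 and Ntrk3, all lower, beside 0.619% of all genes. Without Axl KO replicate 3, 16 of 76 nerve genes and 2027 of 13719 genes in all had an unadjusted p under 0.05, beside 10 and 1154 with all mice. These shares count Scn7a and Cdh19, and Scn7a entered for its difference. In the next paragraphs genes of the lists are given by their values, since none of them passed in edgeR.

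In the list of Schwann cell identity genes, 16 of 25 were tested, 12 were on the lower side and the median log2 fold change was -0.14. Its lowest p-values belonged to Cdh19, Adam22 and Art3. Adam22, a partner of the Schwann cell protein Lgi4, had 6.50 ± 1.10 CPM in Axl KO and 8.49 ± 1.09 CPM in WT mice (SD, n = 5 each), and Art3, a surface ADP-ribosyltransferase family member, had 61.7 ± 19.0 against 83.3 ± 10.5 CPM (SD, n = 5 each). Their log2 fold changes were -0.37 (SE 0.14) and -0.43 (SE 0.18), each with an adjusted p of 0.571. Erbb3 was near 0 but with a wide error, at a log2 fold change of -0.043 (SE 0.22).

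Of the 23 myelin genes, 9 were tested, with a median of -0.11 and 7 on the lower side. Hspa12a, a member of the heat shock protein family, had 59.4 ± 24.8 CPM in Axl KO mice and 92.7 ± 18.04 CPM in WT mice (SD, n = 5 each), a log2 fold change of -0.63 (SE 0.23, adjusted p = 0.571), and its groups overlapped. Prx, which encodes periaxin of the myelin sheath, had 1.22 and 1.58 CPM.

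Among genes of non-myelinating Schwann cells, 6 of 7 tested were on the lower side with a median log2 fold change of -0.34, a list that holds Scn7a itself. N-cadherin (Cdh2) had 72.0 ± 7.38 against 79.1 ± 6.45 CPM (SD, n = 5 each). The axon growth gene Gap43 had 1 read over all mice.

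Of the neurotrophic factors and their receptors, 23 of 31 were tested, with 15 on the lower side and a median of -0.053. Ntrk3, the receptor of neurotrophin-3, had 361 ± 64.7 CPM in Axl KO and 474 ± 33.3 CPM in WT mice (SD, n = 5 each). Its highest Axl KO mouse, at 426 CPM, lay just below its lowest WT mouse, at 435 CPM, and the log2 fold change was -0.39 (SE 0.11, adjusted p = 0.571). Tgfa, a ligand of the EGF receptor, had 1.76 ± 0.608 against 0.970 ± 0.207 CPM (SD, n = 5 each), a log2 fold change of 0.87 (SE 0.29, adjusted p = 0.571). Nrg4, a factor released by brown fat, had 208 CPM in Axl KO and 226 CPM in WT mice with a log2 fold change of -0.12 (SE 0.062). Clstn3, which has an isoform tied to sympathetic innervation of brown fat, had 244 and 233 CPM with 0.068 (SE 0.070). Ntrk2 had 244 and 241 CPM with 0.017 (SE 0.11).

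RNA of axon genes was scarce. The axon list has 23 genes, which are not all particular to sympathetic fibres. Of these, 21 lay under the minimum, the highest of them at 0.604 CPM, and 7 had no read in any mouse. Dbh, which makes noradrenaline, had 0 reads. Stmn2, a growth cone protein and, beside L1cam, the other axon gene tested, had 1.34 CPM in Axl KO and 1.97 CPM in WT mice, with a log2 fold change of -0.55 (SE 0.26, adjusted p = 0.601).

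Scn7a belongs to the voltage-gated sodium channel family, of which, with the sodium pump, 13 of 20 genes were tested. Besides Scn7a, the accessory subunit Scn3b had an unadjusted p under 0.05, with 1.50 CPM in Axl KO and 0.823 CPM in WT mice and a log2 fold change of 0.81 (SE 0.36, adjusted p = 0.579). In the S100 family, 8 of 15 genes were tested and the median was -0.055. S100a13 had 87.4 ± 9.57 CPM in Axl KO and 74.6 ± 6.61 CPM in WT mice (SD, n = 5 each), and S100a11 had 12.1 and 15.4 CPM, with log2 fold changes of 0.23 (SE 0.083) and -0.34 (SE 0.15). All 5 tested genes of the L1 family and related adhesion molecules were on the lower side with a median of -0.34. They are not a separate set. Cdh19 is also in the Schwann cell identity list, and the others are also in the non-myelinating list, which has the same median. The perineurium, the sheath around a nerve bundle, had 4 of 7 on the lower side and a median of -0.039.

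**Figure D3:**
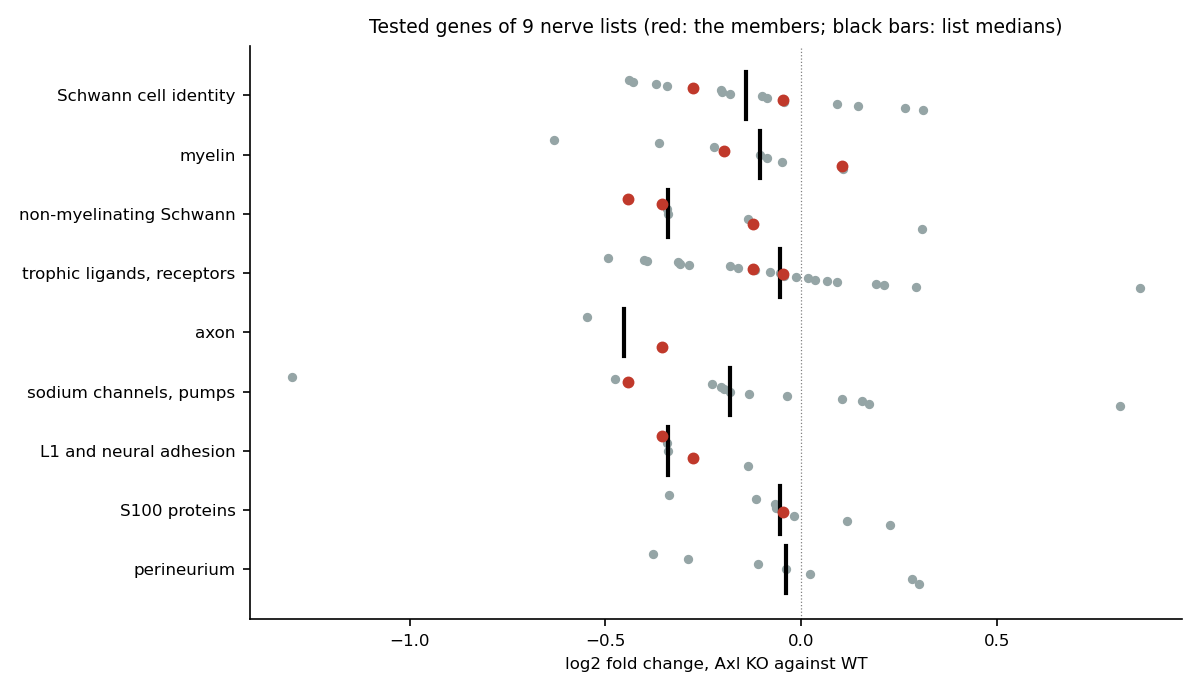
Log2 fold change (Axl KO over WT) of each tested gene in the 9 nerve lists, with 1 point per gene, the members in red, and a black bar at the median of each list. Medians lie between -0.45 in the axon list, with 2 genes tested, and -0.039 in the perineurium list, and the median over all 13739 genes is -0.00059.

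Marker lists of other cell types were measured beside the nerve genes. All 10 fibroblast markers were on the lower side in Axl KO mice (median -0.32 on the log2 scale), and their summed level had its minimum, median and maximum at 513, 714 and 864 CPM in Axl KO mice and 725, 871 and 975 CPM in WT mice. All 12 skeletal muscle markers were on the lower side with a median of -1.05, and their sum ran from 7.06 CPM over 665 to 3613 CPM in Axl KO mice and from 871 CPM over 3358 to 4298 CPM in WT mice. For the adipocyte list 8 of 10 were on the higher side with a median of 0.12, at 16347, 18316 and 20260 CPM in Axl KO and 14786, 15674 and 17241 CPM in WT mice. Mural markers were lower in 8 of 10 with a median of -0.090 (755, 768 and 870 against 815, 904 and 926 CPM), and endothelial markers in 7 of 10 with -0.14 (556, 572 and 708 against 564, 634 and 816 CPM). Macrophage markers had a median of -0.0034 (145, 182 and 258 against 162, 196 and 245 CPM), and the lymphocyte sum was 20.1, 31.2 and 42.7 against 16.2, 38.0 and 74.6 CPM. The oligodendrocyte and pigment cell list summed to 13.8, 14.2 and 15.996 CPM in Axl KO mice against 13.01, 14.6 and 16.6 CPM in WT mice. No gene of these marker lists passed an adjusted p of 0.05 with edgeR. With DESeq2 Dio2 of the adipocyte list did, at a log2 fold change of 0.89 (SE 0.20, adjusted p = 0.030 in DESeq2). At an unadjusted p under 0.05 in edgeR's fit, 2 fibroblast (20%), 2 endothelial (20%) and 1 mural gene (10%) were lower. On the higher side were 3 adipocyte genes (30%). Of all genes tested, 3.86% were lower and 4.54% higher. The part of these cell types in the values of Scn7a, Cdh19 and Pmp22 was not tested.

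**Figure D4:**
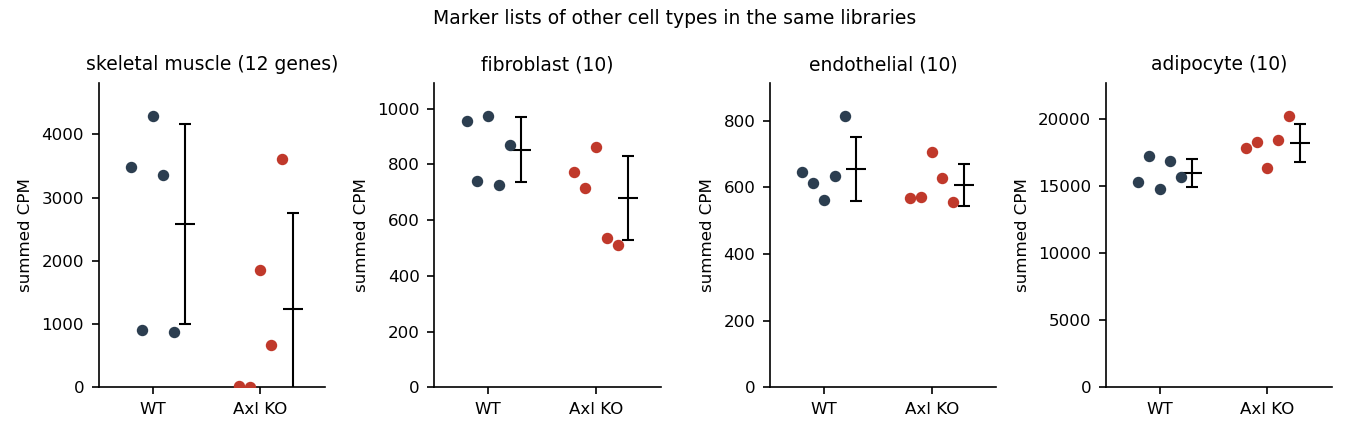
Summed CPM of the skeletal muscle, fibroblast, endothelial and adipocyte marker lists in each mouse, by genotype, with 1 point per mouse and bars for the mean and SD, cut at 0 for skeletal muscle in Axl KO mice. The skeletal muscle sum varies most, from 7.06 to 3613 CPM in Axl KO mice and from 871 to 4298 CPM in WT mice.

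Whether the members rise and fall together between mice of one genotype is a measure that the choice of genes did not use. After the mean of each genotype was subtracted from log2(CPM + 0.5), the 28 pairs of members had a median Pearson r of 0.22 over the 10 mice, with 19 pairs above 0 and a range from -0.70 to 0.74. The points share libraries and depth, and the values are a description with no test. Scn7a and Cdh19, the 2 genes whose groups did not overlap, went opposite ways within genotypes, with r = -0.70 and Spearman's rho = -0.67, and with r = -0.31 once the 2 mice farthest from the median of Scn7a were left out. The highest positive pairs were Pmp22 with Ngfr (r = 0.74, rho = 0.52, and 0.15 without 2 mice), which rests on those 2 mice and on few Ngfr reads, and Mbp with L1cam (r = 0.72, and 0.31 without 2 mice). Mbp and S100b had r = 0.66 and rho = 0.48, and 0.69 without 2 mice.

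Set against the marker lists, a comparison added after the values were seen, Scn7a had r = 0.72 with the mean log2 level of the fibroblast list and rho = 0.82, and r = 0.63 without the 2 farthest mice. Cdh19 had r = -0.27 with the same list and Pmp22 had 0.64. Scn7a had r = 0.19 with the skeletal muscle list. Mbp had r = 0.75 with the endothelial list and rho = 0.78, and 0.79 without 2 mice. Every member was set against the skeletal muscle, fibroblast, endothelial, mural, macrophage and adipocyte lists, and the values given include the highest. Picking the highest of many pairs over 10 mice gives high r in itself. Some other pairs depended on 2 mice. Without them, Scn7a with the macrophage list went from r = 0.21 to 0.76, and S100b with the fibroblast list from -0.46 to -0.72.

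**Figure D5:**
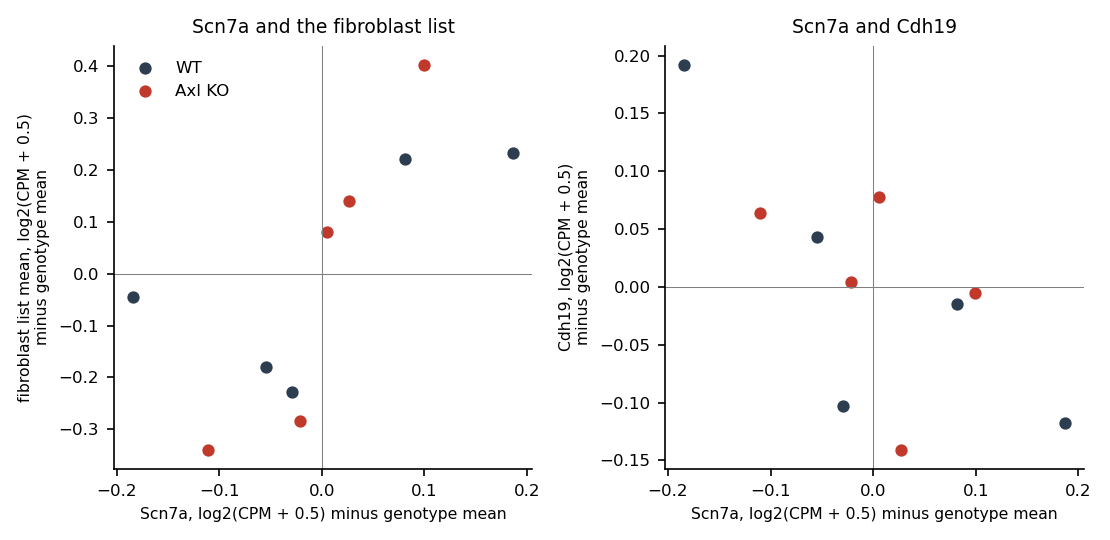
Genotype-centred log2(CPM + 0.5) of Scn7a in each of the 10 mice (horizontal axes), against the mean of the fibroblast marker list on the left and Cdh19 on the right, with WT and Axl KO mice in different colours. Cdh19 runs opposite to Scn7a (r = -0.70) and the fibroblast list runs with it (r = 0.72).

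Among 10373 genes with a mean of at least 5 CPM, the 10 whose pattern between mice was most like that of Scn7a had r between 0.835 and 0.889 over the 10 mice. They were Zfp748, Cd248, Rpl4, Zkscan8, Rpl14, Trim39, Rps24, Stx6, Rpl26 and Rpl35a. Of these, 5 encode ribosomal proteins and Cd248 encodes endosialin, a surface protein of fibroblasts and pericytes, and none is among the nerve lists. For Sox10, whose pattern rests on 0 to 8 reads per mouse, the most alike were 9430037G07Rik, Taf1 and Rbm4, with r of 0.966, 0.936 and 0.932. Choosing the highest of many genes over 10 mice gives high r in itself.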

How the data were processed

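RNA from whole iBAT of 5 Axl KO and 5 WT mice was sequenced with 1 library per mouse. For each mouse the authors deposited raw counts per Ensembl gene, neither normalized nor pooled. The study's methods name Trim Galore, hisat2 and GRCm38, while the submitters' processing notes list Trimmomatic 0.36, STAR 2.6.1c and GRCm38.p5. The counting tool, strand setting and treatment of multi-mapping reads are not given in the sources used here, so reads of overlapping genes cannot be assigned with certainty. The labels name polyadenylated RNA and the methods rRNA depletion.

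Symbols, positions and exon lengths came from GENCODE M21 (GRCm38), which held 41163 of 41249 identifiers. Genes with a mean above 1 CPM were compared in R 4.3.3 with edgeR 4.0.16 (TMM, quasi-likelihood test, Benjamini-Hochberg adjustment over all genes tested). The procedure was tested on simulated counts. TPM was computed from counts and exon-union lengths. DESeq2 1.42.0, other scalings and filters, a robust fit, each mouse left out and the replicate number as a block were alternatives. The tables of any 2 mice differed by at least 5.39 in chi-square per gene, so no table is a copy of another. That measure cannot show that 2 libraries come from different mice. Each library is taken as 1 mouse from the sample records.

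The members and lists were chosen with earlier results of these data known. Named are Axl, the members, the 3 genes of each nerve list with the lowest p, well-known nerve genes, and the 10 genes most like Scn7a and Sox10. Other genes named were chosen after their values were seen. A few genes under this rule are counted in their lists but not reported here by name.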

Additional observations from a re-analysis of the deposited data

Results flagged for a closer look

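In 78 groups of 5 mice, made of single genes and summed lists in CPM, 1 mouse stood apart from the other 4 in 6 groups, by a gap of more than 0.71 of the range of its group. Chance gives about 1 in 20, or 3.9 groups. Sox10 was at 0 CPM in Axl KO replicate 5, where the nearest mouse had 0.582 CPM. The same mouse was highest of its group for S100a13, with 104.1 CPM against 86.6 CPM in the nearest mouse, and for the summed oligodendrocyte and pigment cell list, with 15.996 CPM against 14.3 CPM. Axl was lowest in Axl KO replicate 4, with 0.437 CPM against 1.69 CPM in the nearest mouse. WT replicate 2 was lowest of its group for Ntn4, a netrin of the perineurium list, with 3.07 CPM against 6.19 CPM, and for the summed mural list, with 815 CPM against 899 CPM.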

How the results depend on the processing

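Of 241 alternative values, 6 reversed their direction, and 126 of 132 alternative fold changes of the members kept their direction. DESeq2 called 9 genes where edgeR called 1, and 1 of the nerve genes, Scn7a, where edgeR called 0. The cause of this difference between the methods was not tested. Scn7a was picked for its lower level in these same data, so nothing is read from its call. S100b, which differed by less than its SE, turned to log2 fold changes of 0.0226, 0.00379 and 0.0191 without Axl KO replicate 1, Axl KO replicate 2 and WT replicate 2, and to 0.014 as a ratio of mean TPM, an alternative chosen after seeing the data. Ngfr turned to 0.141 without Axl KO replicate 5 and 0.0516 without WT replicate 1. Over all mice left out in turn, S100b ran from -0.114 to 0.0226, Ngfr from -0.451 to 0.141, Pmp22 from -0.345 to -0.116 and Mbp from 0.0527 to 0.141. Leaving out each mouse in turn left 1 gene called in every case and 0 nerve genes. The number of genes at an unadjusted p under 0.05 ran from 817 to 2027 and that of nerve genes from 7 to 16. Both highest values came without Axl KO replicate 3, beside 1154 and 10 in all mice. The nerve median ran from -0.156 to -0.0649, the Scn7a log2 fold change from -0.486 to -0.393 and the median r between members from 0.156 to 0.294. Mbp had 20.5 TPM with the longest transcript as its length. Replicate numbers are shared by the genotypes. Same-numbered mice had correlations of -0.184, 0.370, 0.0418, 0.0494 and -0.355 for replicates 1 to 5. Only 1 of 5 numbers, replicate 2, correlated best with its own. These correlations cannot exclude that the numbers pair the mice. With the replicate block 1 gene was called, 0 of them a nerve gene, and the log2 fold change of Scn7a was -0.44. At 0 to 17 reads per mouse, depth limits what Sox10 and Ngfr can show.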
